A study of Mus musculus with 8 samples.

Results

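The small leucine-rich proteoglycans were followed in C3H10T1/2 cells, an established multipotent mesenchymal line of mouse embryo origin, after exposure to sphingosine 1-phosphate (S1P), a bioactive lipid with its own family of cell-surface receptors. The 10 genes (Dcn, Lum, Bgn, Fmod, Ogn, Omd, Prelp, Aspn, Kera and Podn) were taken by their symbols from a deposited table of 18306 genes. All 10 were found, and 9 of them passed the filter on low counts that left 11844 genes for testing. Both groups were the same unmodified line, held without serum for 24 h. The S1P group then received 5 µM S1P for 24 h, and the vehicle group received 0.1% fatty acid-free bovine serum albumin for the same time. There were 4 vehicle libraries (replicates 1 to 4) and 4 S1P libraries (replicates 5 to 8). Whether each library is its own culture is not stated in the labels. The p-values therefore reflect the variation among these 8 libraries alone, which may be technical.

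The family shares a core protein built of leucine-rich repeats that folds into an arc, and most members carry chondroitin, dermatan or keratan sulfate chains. The proteins are secreted into the matrix, where several bind collagen fibrils and control how fibrils grow and join, and some bind growth factors such as TGF-beta or signal through Toll-like receptors. By sequence and gene structure, Dcn, Bgn and Aspn are placed in class I, Lum, Fmod, Prelp, Kera and Omd in class II, Ogn in class III and Podn in class V. In connective tissues they are products of fibroblasts, tendon cells, bone cells and chondrocytes.

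After S1P, 3 members fell about 4-fold or more and none rose. Dcn (decorin), Lum (lumican) and Podn (podocan) were lower, while Bgn, Aspn, Ogn, Prelp, Omd and Fmod did not pass the test of edgeR with Benjamini-Hochberg adjustment over all genes. Over all tested genes, 2.9% were called lower, 5.6% were called higher and 8.5% were called in either direction. The members and lists were chosen with earlier results of these data known, and Dcn and Lum were among the genes already seen to fall.

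**Figure D1:**
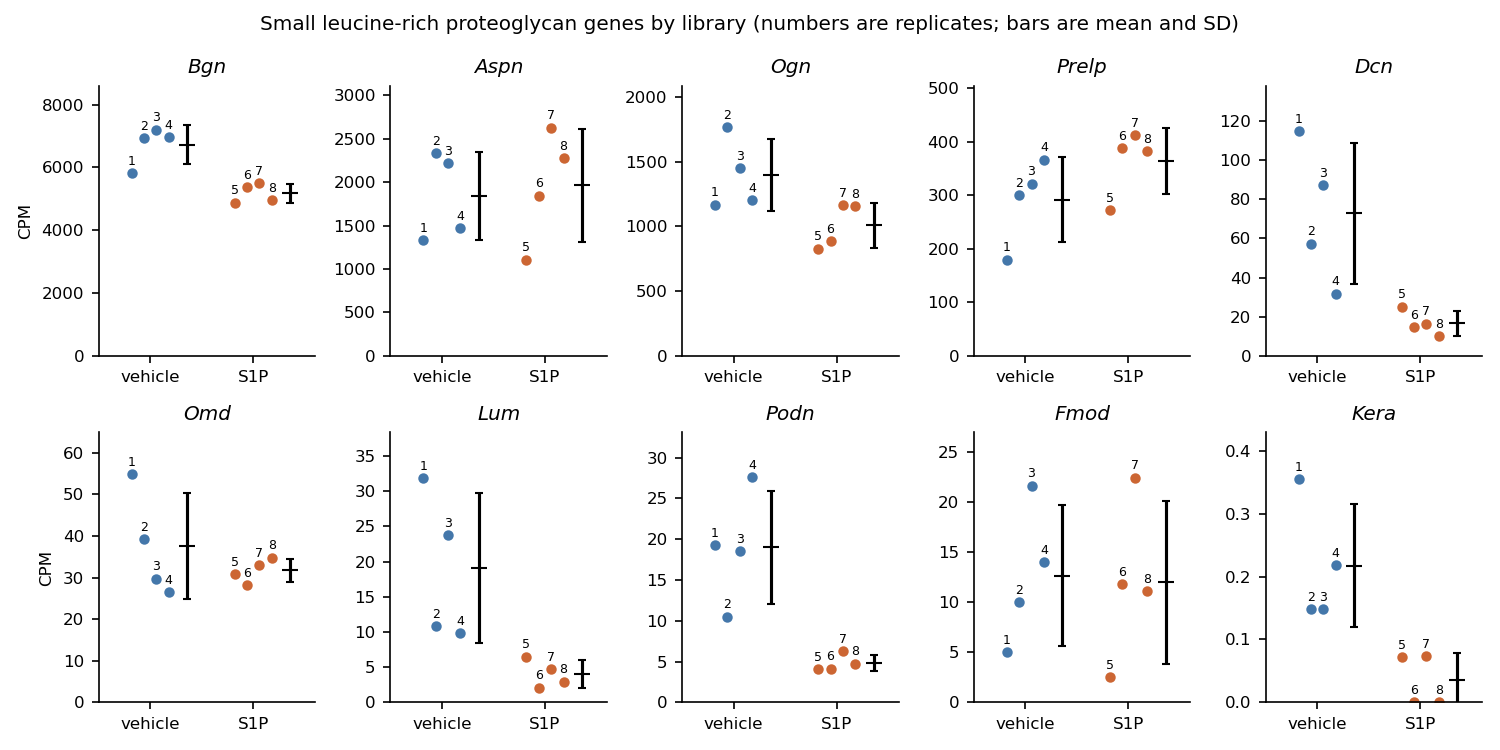
CPM (counts scaled to a common library size with composition factors) of the 10 proteoglycan genes in each library, with vertical axes from 0 and replicate numbers beside the points; bars give the mean and SD of 4 libraries. Dcn, Lum and Podn lie lower in all 4 S1P libraries than in any vehicle library, whereas Aspn, Fmod, Prelp and Omd overlap between the groups.

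Upstream sequence was at hand for 8 of the 10 genes in the RefSeq table of GRCm38.p6 and is not shown for Dcn and Lum. The windows of Podn, which fell, and of Bgn, the most abundant member, are printed because the first Podn window is rich in CG pairs, while the second resembles that of Bgn. Each runs from 250 bases before to 50 bases after an annotated start, on the strand of the gene, with CG pairs in capitals.
Podn, first start, chr4:108031905-108032204, minus strand: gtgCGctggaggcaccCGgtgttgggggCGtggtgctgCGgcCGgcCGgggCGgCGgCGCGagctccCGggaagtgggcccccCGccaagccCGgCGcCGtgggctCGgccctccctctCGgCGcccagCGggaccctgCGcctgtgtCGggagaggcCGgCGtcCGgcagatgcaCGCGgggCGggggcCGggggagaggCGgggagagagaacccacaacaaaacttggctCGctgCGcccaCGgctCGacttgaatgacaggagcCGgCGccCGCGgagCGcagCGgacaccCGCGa
Podn, second start, chr4:108030937-108031236, minus strand: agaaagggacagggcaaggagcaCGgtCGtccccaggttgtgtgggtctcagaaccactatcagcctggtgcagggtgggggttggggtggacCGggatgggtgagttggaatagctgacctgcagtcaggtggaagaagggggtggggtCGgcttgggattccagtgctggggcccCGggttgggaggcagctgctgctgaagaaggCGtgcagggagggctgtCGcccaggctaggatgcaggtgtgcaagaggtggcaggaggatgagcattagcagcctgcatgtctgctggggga
Bgn, chrX:73483351-73483650, plus strand: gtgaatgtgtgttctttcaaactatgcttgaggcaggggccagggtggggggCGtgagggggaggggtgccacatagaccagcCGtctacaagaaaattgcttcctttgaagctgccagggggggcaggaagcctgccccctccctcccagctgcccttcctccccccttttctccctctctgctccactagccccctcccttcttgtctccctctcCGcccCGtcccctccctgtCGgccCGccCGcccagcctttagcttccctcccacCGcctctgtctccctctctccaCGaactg
The first Podn window held 41 CG pairs and was 77.0% G or C, the second held 7 and was 63.0% G or C, and the Bgn window held 9 and was 63.7%. The median over all 32851 windows of the table was 7 CG pairs and 52.7% G or C, and 3.46% of all windows held at least 41. The letters TATAAA were searched on both strands and occur in 13.6% of all windows. TGANTCA, searched likewise, occurs in 7.81%. GGAATG occurs in 14.7%, and a CArG box in 1.63%. None of these was in either Podn window or in the Bgn window. Among the other members' windows, Aspn and Ogn held TATAAA and Ogn held GGAATG.

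Levels differed by orders of magnitude among the members. Between genes, levels are compared as CPM per kb, using the length of all annotated exons of a gene in GENCODE M21. This length joins the exons of all transcripts (6099 bases for Bgn, 5838 for Dcn, 2249 for Omd). The annotation behind the counts is not stated, and the order depends on the length used. By CPM alone, the vehicle mean of Dcn was above that of Omd (72.7 against 37.6). In vehicle, Bgn had the highest level at 1103 ± 102 CPM per kb (SD, n = 4), followed by Aspn at 781 ± 216 and Ogn at 544 ± 108. The ranges of Bgn and Aspn overlapped across libraries, as did those of Aspn and Ogn, and the order given is that of the means. Within each vehicle library, Ogn lay under Aspn by CPM, with log2 ratios from -0.61 to -0.19. Prelp was next at 80.7 ± 22.1 CPM per kb and overlapped neither Ogn above it nor Omd below it.
The lower group held Omd at 16.7 ± 5.67, Dcn at 12.5 ± 6.15, Lum at 7.80 ± 4.34, Podn at 4.45 ± 1.63 and Fmod at 3.84 ± 2.12 CPM per kb, with each overlapping the next. Kera was last at 0.0953 CPM per kb. In the S1P libraries, Dcn, Lum and Podn were at 2.85 ± 1.08, 1.66 ± 0.796 and 1.13 ± 0.242 CPM per kb, and Fmod, at 3.63 ± 2.47, had the higher mean than each of them, with overlapping libraries. Averaged over the 8 libraries, Bgn ranked 6 among all 18306 genes by CPM and 18 among the 17497 genes with a length by CPM per kb. The 10 members together took 0.894% to 1.12% of the counts in vehicle libraries and 0.722% to 0.968% in S1P libraries, and Bgn alone took 0.596% to 0.708% and 0.492% to 0.544%.

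Class I held the most abundant member and 1 of the 3 that fell. Decorin binds collagen I fibrils and TGF-beta, and Dcn (chromosome 10, 96942045 to 96980977 in mm9) measured 115, 57.2, 87.2 and 31.9 CPM in vehicle replicates 1 to 4 and 25.2, 14.6, 16.5 and 10.2 CPM in S1P replicates 5 to 8. Vehicle replicate 4 was the lowest of its group and S1P replicate 5 the highest of its group, and these 2 libraries were only 1.27-fold apart. The means were 72.7 ± 35.9 and 16.6 ± 6.29 CPM (SD, n = 4), a 4.38-fold decrease (log2 fold change -2.13, SE 0.40, 95% interval -3.03 to -1.23, edgeR adjusted p = 0.0125). Without S1P replicate 6 the log2 fold change was -2.07 and the adjusted p in edgeR was 0.0525. In bulk RNA, fewer cells that express a gene and less RNA per cell cannot be told apart.

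Biglycan, the closest relative of decorin, binds collagens and Toll-like receptors. Bgn (chromosome X, 70728741 to 70741472) measured 5815, 6928, 7201 and 6966 CPM in vehicle and 4884, 5371, 5495 and 4954 CPM after S1P. The groups did not overlap, although the lowest vehicle library was 1.06-fold above the highest S1P library. The means were 6727 ± 620 and 5176 ± 302 CPM (SD, n = 4), with a log2 fold change of -0.38 (SE 0.13, 95% interval -0.66 to -0.09) that did not pass in edgeR (adjusted p = 0.102). DESeq2 called it lower (adjusted p = 0.00305).
Asporin binds collagen and TGF-beta and carries a run of aspartates in place of the usual glycosaminoglycan chain. Aspn (chromosome 13, 49639612 to 49663126) ranged from 1334 to 2330 CPM in vehicle and from 1110 to 2626 CPM after S1P, with means of 1837 ± 508 and 1964 ± 653 CPM (SD, n = 4). The spread within each group exceeded the difference (log2 fold change 0.10, 95% interval -0.54 to 0.73, edgeR adjusted p = 0.853), and the sign turned on leaving out vehicle replicate 1 (-0.052) or S1P replicate 7 (-0.074).

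Class II held Lum, with a decrease of about the size of that of Dcn, and 3 tested members whose groups overlapped. Lumican is a keratan sulfate proteoglycan that regulates collagen fibrils in cornea and skin. Lum (chromosome 10, 97027935 to 97035537) measured 31.9, 10.8, 23.8 and 9.87 CPM in vehicle and 6.49, 2.11, 4.70 and 2.94 CPM after S1P. All S1P libraries lay under all vehicle libraries, and vehicle replicates 1 and 3 were high, as for Dcn. The means were 19.1 ± 10.6 and 4.06 ± 1.95 CPM (SD, n = 4), a 4.70-fold decrease (log2 fold change -2.23, SE 0.47, 95% interval -3.29 to -1.17, edgeR adjusted p = 0.0197). In edgeR, the call was lost without S1P replicate 6, 7 or 8 (adjusted p = 0.0667, 0.0557 and 0.0716).

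Fibromodulin binds collagen I and shares its binding region with lumican. Fmod (chromosome 1, 135933631 to 135945054) measured 5.04, 10.0, 21.7 and 14.01 CPM in vehicle and 2.52, 11.8, 22.5 and 11.1 CPM after S1P. Its libraries spread 4.30-fold in vehicle and 8.89-fold after S1P, the widest of the tested members, and S1P replicate 5 was the lowest of all 8. The log2 fold change was -0.08 with a 95% interval of -1.40 to 1.24 (edgeR adjusted p = 0.943), so neither a 2-fold decrease nor a 2-fold increase lies outside it. Without vehicle replicate 3 or S1P replicate 5 the sign turned (0.31 and 0.26).
Prelp encodes a heparan sulfate-binding member that lacks glycosaminoglycan chains (chromosome 1, 135806681 to 135818191). It measured 180, 300, 322 and 366 CPM in vehicle and 272, 387, 412 and 382 CPM after S1P, and S1P replicate 5 lay within the vehicle range while the other S1P libraries lay above it. Its log2 fold change of 0.32 (95% interval -0.18 to 0.81, edgeR adjusted p = 0.398) was the highest among the 9 tested members.

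Osteomodulin, also called osteoadherin, is a keratan sulfate proteoglycan of bone. Omd (chromosome 13, 49677935 to 49688178) measured 54.9, 39.3, 29.8 and 26.5 CPM in vehicle and 30.9, 28.3, 32.9 and 34.8 CPM after S1P. The S1P libraries lay inside the vehicle range and were closer together, with a log2 fold change of -0.25 (95% interval -0.73 to 0.24, edgeR adjusted p = 0.506). Keratocan is a class II proteoglycan of the cornea. Kera (chromosome 10, 97069617 to 97076522) was close to the limit of detection, with 5, 2, 2 and 3 counts in vehicle and 1, 0, 1 and 0 counts after S1P, and it was not tested. The summed counts were 12 in vehicle (exact Poisson interval 6.20 to 20.96) and 2 after S1P (0.242 to 7.225), for counting error only. At these depths, 3 counts correspond to 0.213 to 0.222 CPM.

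Of the remaining members, Podn fell and Ogn did not pass. Podocan is a member with a larger number of repeats, studied in vascular smooth muscle. Podn (chromosome 4, 107687196 to 107705142) measured 19.3, 10.5, 18.6 and 27.6 CPM in vehicle and 4.11, 4.14, 6.31 and 4.74 CPM after S1P. The lowest vehicle library was 1.67-fold above the highest S1P library, the widest gap among the tested members. Here vehicle replicate 4 was the highest of its group, whereas for Dcn and Lum it was the lowest. The means were 19.0 ± 6.97 and 4.82 ± 1.03 CPM (SD, n = 4), a 3.94-fold decrease (log2 fold change -1.98, SE 0.29, 95% interval -2.63 to -1.32, edgeR adjusted p = 0.00494). The call held in edgeR in each of the 8 leave-one-out fits, with an adjusted p of at most 0.0252.
Osteoglycin, also called mimecan, is a member found in bone and vessel walls. Ogn (chromosome 13, 49703240 to 49720069) measured 1169, 1766, 1451 and 1202 CPM in vehicle and 829, 885, 1162 and 1156 CPM after S1P. The groups did not overlap, but the lowest vehicle library was only 1.01-fold above the highest S1P library. The log2 fold change was -0.47 (SE 0.18, 95% interval -0.87 to -0.07) and did not pass in edgeR (adjusted p = 0.142) or in DESeq2 (adjusted p = 0.0578).

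**Figure D2:**
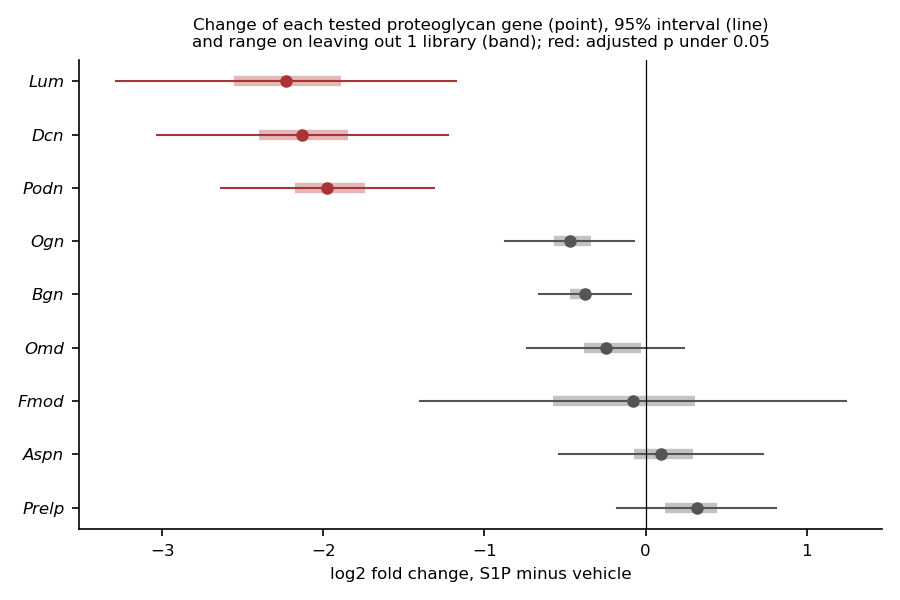
Log2 fold change of the 9 tested proteoglycan genes, S1P minus vehicle (points), with the 95% interval of the edgeR fit (lines) and the range over the 8 fits that each left out a library (bands); red marks an adjusted p under 0.05. Lum, Dcn and Podn lie between -2.23 and -1.98, and the other 6 lie between -0.47 and 0.32.

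By count, 3 of the 9 tested members were lower and none was higher, against 2.9% and 5.6% of all tested genes. Dcn and Lum were already seen to fall when the members were chosen, so this count is a description. At an unadjusted p under 0.05, 5 members were lower and none higher, where 24.9% of all genes passed in either direction. The S1P libraries lay wholly under the vehicle libraries for 5 of 9 members (Dcn, Lum, Podn, Bgn and Ogn), compared with 7.21% of all tested genes. The log2 fold change was negative for 7 members and positive for 2, and its median was -0.38, against -0.04 over all 11844 genes. All 9 had at least 29 counts in every library, so the filter did not depend on the group. DESeq2 called 4 members lower (the same 3 and Bgn), where it called 6.82% of the 11784 genes with an adjusted p lower. The count of members called lower by edgeR was 1, Podn, without S1P replicate 6, and 2, Dcn and Podn, without S1P replicate 7 or 8. Over all tested genes, the fits without S1P replicate 6, 7 or 8 called 101, 151 and 108 lower, against 344 with all libraries.

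Whether members differed in their response was tested on the log2 ratio of 2 members within each library, for 7 pairs of the same class or the same chromosomal cluster. The test was an exact two-sided permutation test over the 70 assignments of the libraries to groups, which cannot give a p below 0.0286, with Benjamini-Hochberg adjustment over the 7 pairs. None of the 7 pairs passed. The log2 ratio of Dcn to Bgn was -5.66, -6.91, -6.36 and -7.75 in vehicle and -7.57, -8.47, -8.34 and -8.86 after S1P. It was lower by 1.64 on average, but vehicle replicate 4 lay under S1P replicate 5 (exact permutation p = 0.0571, adjusted p = 0.133). The ratio of Dcn to Aspn differed by -2.08 and that of Ogn to Aspn by -0.54, and each also had 1 pair of libraries out of order (both exact permutation p = 0.0571, adjusted p = 0.133).
The Dcn to Lum ratio differed by only 0.02 between the groups (exact permutation p = 0.857, adjusted p = 0.857). It stayed between 1.64 and 2.35 on the log2 scale in vehicle and between 1.63 and 2.53 after S1P, while each gene alone spread over 3-fold among vehicle libraries. The ratios of Lum to Fmod (difference -1.81), Fmod to Prelp (-0.57) and Ogn to Omd (-0.28) had adjusted p of 0.2, 0.433 and 0.433 in the same exact permutation test. These misses do not show that the members respond alike.

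**Figure D3:**
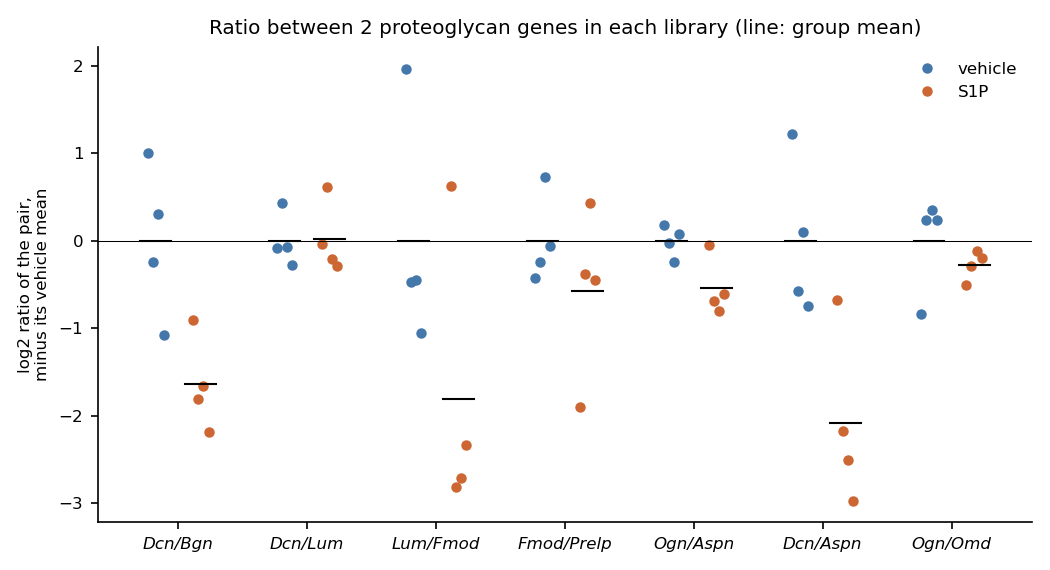
Log2 ratio of the CPM of 2 proteoglycan genes in each library, less the mean ratio of the vehicle libraries, for 7 pairs; points are libraries and short lines are group means. The Dcn to Bgn and Dcn to Aspn ratios are lower in 3 of 4 S1P libraries than in any vehicle library, and the Dcn to Lum ratios of the groups overlap.

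Most members lie in clusters of neighbouring family genes, and the members that fell were found in 1 cluster and at a lone locus. On chromosome 10, Dcn, Lum, Kera and Epyc follow each other on the plus strand within 203.2 kb, and the first 2 of them were lower. Epyc, which encodes the cartilage member epiphycan, was low at 2.89 ± 1.63 CPM in vehicle and 1.95 ± 1.71 after S1P (SD, n = 4; log2 fold change -0.56, edgeR adjusted p = 0.593). On chromosome 13, Ecm2, Aspn, Omd and Ogn follow each other within 120.1 kb, and none passed in edgeR. On chromosome 1, Optc, Prelp and Fmod lie within 151.5 kb, and neither tested gene passed there. Bgn and Podn have no family neighbour within 250 kb. The chromosome 13 cluster lies on the strand opposite to Cenpp, a centromere protein gene whose span covers all 4 genes. Cenpp rose from 6.86 to 26.2 CPM (log2 fold change 1.93, edgeR adjusted p = 0.00305). Its annotated exons share 7 bases with Aspn and none with Ecm2, Omd or Ogn. The deposited table is named as sense counts, but the strandedness of the library kit is not stated, so the values of the 4 genes are uncertain to that extent.

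Of the 39 non-member genes within 250 kb of a member, Epyc, Ecm2 and Optc among them, 25 were tested, 4 were higher and 1 was lower. The shares over all tested genes were 5.6% higher and 2.9% lower. The highest change among these neighbours beside Cenpp was that of Lrp8, a lipoprotein and reelin receptor near Podn (log2 fold change 1.29, edgeR adjusted p = 0.00321). Iars, an isoleucyl-tRNA synthetase, and Fgd3, a guanine nucleotide exchange factor, rose near Aspn (log2 fold change 0.65 and 1.17, edgeR adjusted p = 0.0192 and 0.0263), each called in 4 of 8 leave-one-out fits. Chi3l1, a chitinase-like secreted protein, fell near Fmod (log2 fold change -2.06, edgeR adjusted p = 0.0331) and was also called in 4 of 8. Scp2, whose span ends 11102 bases from Podn, was at 124 CPM in vehicle and 115 CPM after S1P (log2 fold change -0.10, edgeR adjusted p = 0.655).

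**Figure D4:**
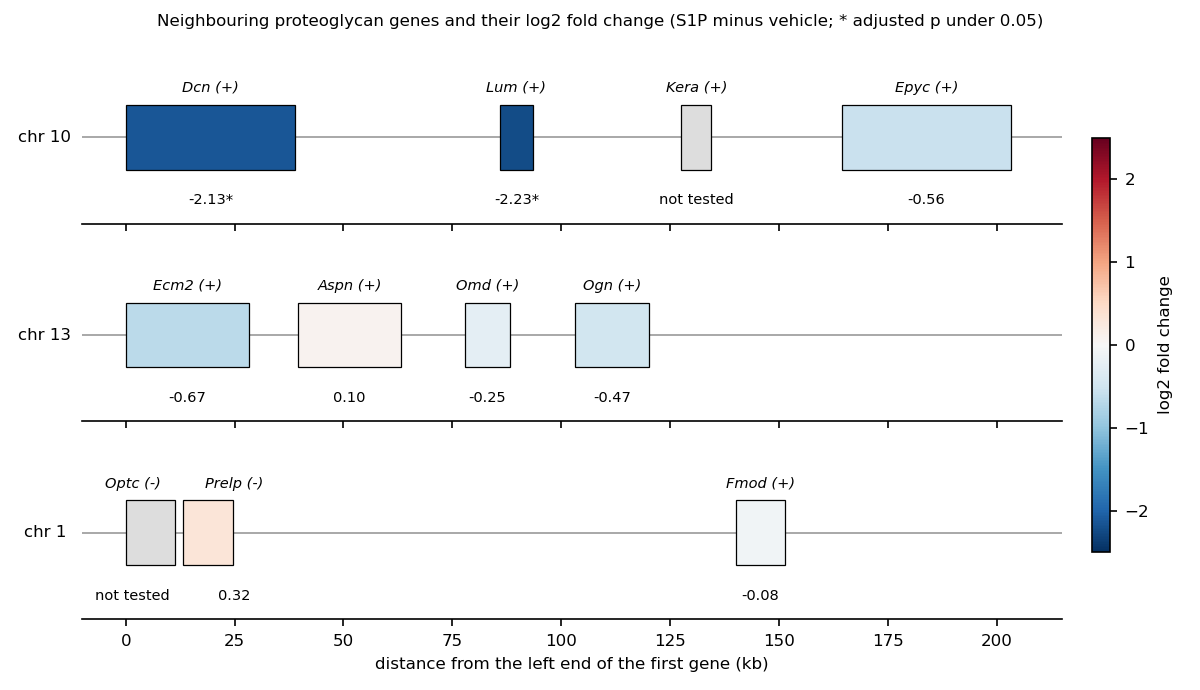
The 3 clusters of family genes drawn to scale from the deposited spans, as distance in kb from the left end of each cluster, with the strand beside each symbol and colour and number giving the log2 fold change (S1P minus vehicle). Dcn and Lum, at -2.13 and -2.23, are the genes marked as changed, and grey genes were not tested.

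Profiles over the 8 libraries were compared by the root mean square difference of log2 CPM after subtracting each gene's own mean. The difference between the groups is part of this measure, so it partly restates the fold changes. Between Dcn and Lum it was 0.31, against 0.78 between Dcn and Podn, 0.70 between Lum and Podn and 1.04 between Dcn and Bgn. Outside the members, among genes of at least 5 CPM, the closest to Dcn were Btc, the EGF receptor ligand betacellulin (0.29), and Gm15987 (0.29). The closest to Lum were Gm15987 (0.24) and C1s, a protease of the classical complement pathway (0.31). C1s fell from 950 to 287 CPM (log2 fold change -1.73, edgeR adjusted p = 0.0202) but was not called on omitting S1P replicate 7 or 8 (adjusted p up to 0.073), and its span overlaps those of Gm5077 and C1rb. The closest to Podn were Fxyd1, a regulator of the sodium pump, and Fam102a, both at 0.35. For Bgn they were Fkbpl (0.05) and Zcchc24 (0.07). These nearest genes were picked from all tested genes and are a description.

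Other family genes, outside the 10 members, did not pass in edgeR. Of 8 listed, 7 were in the table and 5 were tested, with a median log2 fold change of -0.67. None passed, and 3 were lower at an unadjusted p under 0.05, which 24.9% of all tested genes passed in either direction. DESeq2 called 2 lower, Tsku and Ecm2, and gave Chadl no adjusted p. It called 6.82% of the 11784 genes with an adjusted p lower. Tsku, the secreted signalling modulator tsukushi, was at 26.3 ± 8.69 CPM in vehicle and 16.2 ± 3.04 after S1P (SD, n = 4; log2 fold change -0.70, edgeR adjusted p = 0.0969), and its groups did not overlap. Ecm2 was at 38.3 ± 6.83 and 24.0 ± 7.46 CPM (log2 fold change -0.67, edgeR adjusted p = 0.103) and passed in 1 of 8 leave-one-out fits, without vehicle replicate 4 (edgeR adjusted p = 0.0408). Chadl measured 1.28, 0.890, 1.48 and 11.4 CPM in vehicle and 0.289, 0.291, 0.514 and 0.287 CPM after S1P (log2 fold change -3.41, edgeR adjusted p = 0.0505). It was called in the 4 fits that each lacked 1 vehicle library. Vehicle replicate 4 carried most of its vehicle mean, and 1023 of its exon bases are shared with L3mbtl2 on the other strand, so its value is uncertain. Podnl1 was at 1.71 ± 0.591 and 1.99 ± 1.11 CPM (SD, n = 4; log2 fold change 0.22, edgeR adjusted p = 0.766), and Optc and Nyx were under 1 CPM in both groups on average and were not tested.

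Among proteoglycans of other families, 4 of 15 tested genes were lower, 1 was higher and 10 did not pass. Over all tested genes, 2.9% were lower and 5.6% higher. The median log2 fold change of the list was -0.73, and without vehicle replicate 4 it was -0.18. That library was the highest for Hspg2, the basement membrane proteoglycan perlecan, at 1096 CPM, with vehicle replicates 1 to 3 between 211 and 269 CPM (named after its values were seen). The syndecan Sdc3, a cell-surface heparan sulfate proteoglycan, measured 147, 158, 141 and 182 CPM in vehicle and 93.7, 95.7, 86.8 and 66.1 CPM after S1P. It fell 1.83-fold (log2 fold change -0.87, SE 0.14, edgeR adjusted p = 0.00697) and was called in all 8 leave-one-out fits. Tgfbr3, the TGF-beta co-receptor betaglycan, fell 1.79-fold (edgeR adjusted p = 0.0269). Srgn, the intracellular granule proteoglycan serglycin, and Prg4, the joint lubricant lubricin, had log2 fold changes of -2.66 and -2.53 (edgeR adjusted p = 0.0453 and 0.0317), with vehicle replicate 3 the highest for both at 41.1 and 8.80 CPM. The glypican Gpc6, named after its value was seen, rose 1.44-fold (edgeR adjusted p = 0.0423). Tgfbr3, Srgn, Prg4 and Gpc6 were each called in 2 of 8 leave-one-out fits, and Prg4 shares 204 exon bases with the more abundant gene Tpr. The count of genes lower in this list dropped to 1 on omitting vehicle replicate 2 or S1P replicate 6, 7 or 8, and to 2 on omitting vehicle replicate 3 or S1P replicate 5. Those fits called 101 to 343 of all genes lower, against 344 with all libraries. The count in this list was 6 on omitting vehicle replicate 4 and 6 with DESeq2, where 723 and 804 of all genes were lower. DESeq2 gave Hspg2 no adjusted p. It added Vcan, the large matrix proteoglycan versican (adjusted p = 0.00552), and the glypican Gpc1 (adjusted p = 0.00951), both named after their values were seen.

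The enzymes that build the sugar chains did not pass in edgeR with all libraries. None of 20 tested genes of the linker region and of chondroitin and dermatan sulfate was called. At an unadjusted p under 0.05, 3 were lower and none higher, where 24.9% of all tested genes passed in either direction. The median log2 fold change of the 20 was -0.31, or -0.16 without vehicle replicate 4. DESeq2 called 1 of them lower and gave Chpf no adjusted p, where 6.82% of the 11784 genes with an adjusted p were lower. The fit with a surrogate variable called 3 of them lower, and 1015 of all 11844 genes. In edgeR, Dsel was lower on omitting vehicle replicate 4 (adjusted p = 0.0436) and Csgalnact1 on omitting S1P replicate 5 (adjusted p = 0.0483). Those 2 fits called 723 and 343 of all genes lower. The most abundant were Dse, the epimerase that makes dermatan sulfate, at 324 ± 81.4 and 283 ± 36.4 CPM, and Fam20b, a xylose kinase of the linker, at 166 ± 18.6 and 158 ± 8.20 CPM (SD, n = 4; edgeR adjusted p = 0.534 and 0.708). None of 4 tested keratan sulfate genes was called in edgeR, and B4galt1, a galactosyltransferase, was at 364 ± 56.5 and 276 ± 23.8 CPM (SD, n = 4; edgeR adjusted p = 0.104), lower in DESeq2 (adjusted p = 0.026) and in edgeR on omitting vehicle replicate 4 (adjusted p = 0.00846). B4galt4, another galactosyltransferase, was at 22.8 ± 2.49 and 22.0 ± 6.53 CPM (SD, n = 4).

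The listed fibrillar and fibril-associated collagens, the latter including Col12a1, mostly did not pass. Of 10 tested, 1 was lower and 9 did not pass, where 2.9% of all tested genes were lower. The median log2 fold change of the 10 was -0.14 and turned to 0.20 without vehicle replicate 4. The most abundant were Col1a2, at 5314 ± 1284 and 5451 ± 1029 CPM (SD, n = 4; edgeR adjusted p = 0.926), and Col3a1, at 5676 ± 275 and 3558 ± 901 CPM. The Col3a1 libraries did not overlap (log2 fold change -0.67, edgeR adjusted p = 0.0571; DESeq2 adjusted p = 0.00427). The gene that fell was Col5a3, chosen after its value was seen, at 2.70-fold (edgeR adjusted p = 0.0432), and it was called in 1 of 8 leave-one-out fits.

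Among ligands, receptors and processing proteases of the family, 3 of 17 tested genes rose, 1 fell and 13 did not pass. For comparison, 5.6% of all tested genes were called higher and 2.9% lower. The median log2 fold change of the 17 was 0.06, or 0.21 without vehicle replicate 4. Ctgf, a matricellular protein that binds decorin, measured 32.1, 49.5, 76.4 and 32.4 CPM in vehicle and 231, 211, 240 and 154 CPM after S1P, with all S1P libraries above all vehicle libraries (log2 fold change 2.14, edgeR adjusted p = 0.00365). Met, the hepatocyte growth factor receptor that decorin binds, rose 2.07-fold (edgeR adjusted p = 0.007), and both were called in all 8 leave-one-out fits. Tgfb3, a ligand bound by decorin and biglycan, rose 2.05-fold (edgeR adjusted p = 0.0272). Tlr2, a receptor for biglycan, fell 1.68-fold (edgeR adjusted p = 0.0423). Tgfb3 and Tlr2 were each called in 2 of the 8 fits, and the span of Tgfb3 overlaps that of Ttll5. Bmp1, the protease that removes the propeptide of biglycan, was at 174 ± 81.6 and 100.4 ± 11.1 CPM (SD, n = 4; edgeR adjusted p = 0.104) and was named after its value was seen. Vehicle replicate 4 was its highest library at 296 CPM. The number of genes called lower in this list was 4 with DESeq2 and also 4 on omitting vehicle replicate 4. Over all genes, 804 and 723 were lower in those fits, against 344 with all libraries in edgeR. The number in this list was 0 on omitting vehicle replicate 2 or 3 or any 1 S1P library, where 101 to 343 of all genes were lower.

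**Figure D5:**
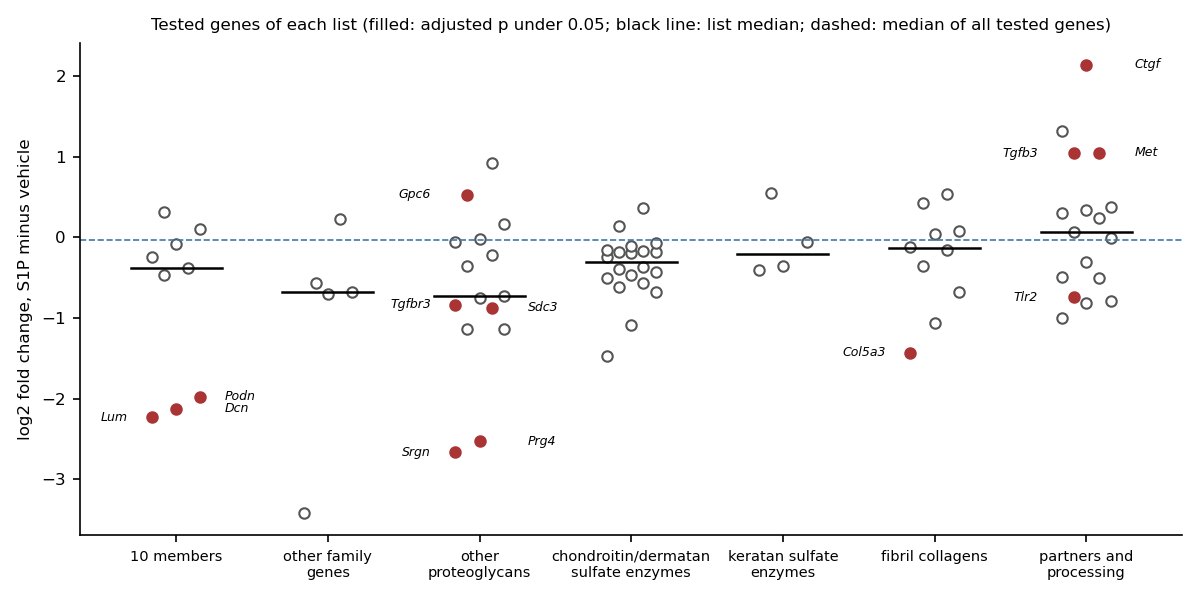
Log2 fold change (S1P minus vehicle) of each tested gene in 7 lists; filled red points have an edgeR adjusted p under 0.05, black lines are list medians and the dashed line is the median of all tested genes. Dcn, Lum and Podn stand below the other 6 tested members, and the called genes of the partner list lie on both sides of 0.

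The deposited totals were nearly equal, from 13750303 to 13761544 counts, and the sequencing depth behind them is not stated. Vehicle replicate 4 stood apart by its mitochondrial share, at 2.5% against 3.45% to 3.83% in the other 7 libraries. It was the lowest vehicle library for Dcn and Lum, and without it and S1P replicate 5 the log2 fold changes of Dcn, Lum and Podn were -2.65, -2.77 and -1.67 (edgeR adjusted p = 0.00411, 0.0103 and 0.00738). Mesenchymal markers were present, with 8 of 8 tested and a summed level of 10470 to 11780 CPM in vehicle and 8927 to 9825 CPM after S1P. Of these, Col6a1, chosen after its value was seen, was lower (1960 against 978 CPM, edgeR adjusted p = 0.0104), and Vim and Prrx1 did not pass (edgeR adjusted p = 0.527 and 0.413). At an unadjusted p under 0.05, which 24.9% of all tested genes passed in either direction, 2 of the 8 were lower and 2 higher. The lower were Col6a1 and Pdgfra, named after its value was seen (1570 against 761 CPM, log2 fold change -1.04, edgeR adjusted p = 0.0853). The higher were Twist1 (17.4 against 22.2 CPM) and S100a4 (962 against 1383 CPM), with edgeR adjusted p of 0.114 and 0.145. The part of this marker difference in the proteoglycan values was not tested.
The 4 leukocyte markers summed to 0.497 to 1.92 CPM in vehicle and 0.646 to 1.10 CPM after S1P, and Ptprc was at 0 in all vehicle libraries. The 4 endothelial markers summed to 36.5 to 76.8 and 17.2 to 43.9 CPM, nearly all of it Tek, with Kdr at 0 in all vehicle libraries and Pecam1 at 0.253 CPM on average. Epithelial markers, 2 of 4 in the table, summed to 1.11 to 2.83 and 1.47 to 2.18 CPM. Of the tendon, cartilage, bone and fat markers, 3, 3, 1 and 3 were tested and none passed in edgeR, while 1 tendon and 1 fat gene were higher and 1 fat gene lower at an unadjusted p under 0.05. DESeq2 called the tendon transcription factor gene Mkx higher, the fat cell regulator Pparg lower and the mesenchymal markers Col6a1 and Pdgfra lower, and the part of these in the proteoglycan values was not tested.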

How the data were processed

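RNA sequencing of 4 vehicle and 4 S1P libraries was analysed from 1 table of whole-number counts per Ensembl gene, deposited by the authors without a stated normalisation, with mm9 coordinates. STAR 2.5.3a and mm9 are named per the submitters' processing notes. The table is named as sense counts. Its counting tool, annotation and library strandedness are not stated there. The 8 totals are nearly equal, so the depth before any reduction to a common size is unknown. Columns were matched to samples by title.

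Genes were kept with filterByExpr of edgeR 4.0.16 (minimum count of 10, R 4.3.3), TMM factors were applied, and the groups were compared by the quasi-likelihood test of edgeR in its robust form, with Benjamini-Hochberg adjustment over all 11844 genes and a threshold of 0.05. CPM values use the TMM factors, pair ratios and profiles added 0.5 CPM, and the SE comes from the F statistic. The fit was tested on simulated counts. Alternatives were RLE or no factors, other filters, DESeq2 1.42.0, limma-voom (limma 3.58.1), a surrogate variable (sva 3.50.0) and leaving out libraries.

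Named genes are all 10 members, the other family genes, up to 4 called genes of each list by size of change (or the 2 most abundant where fewer than 2 were called), with others marked as named after their values were seen, tested genes within 250 kb of a member and the 2 genes closest in profile to each. Values for some of these are summarised. The members and lists were chosen with earlier results of these data known.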

Additional observations from a re-analysis of the deposited data

Results flagged for a closer look

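Among 60 groups of 4 libraries checked for 30 genes, 3 held a library far from the other 3, where chance alone marks about 1 in 20 groups. The 30 genes were a chosen part of the lists and left out, among others, Hspg2 and Bmp1. Vehicle replicate 4 was at 1096 CPM for Hspg2 and 296 CPM for Bmp1. Vehicle replicates 1 to 3 were at 211 to 269 and 124 to 142 CPM. The count therefore does not describe how often vehicle replicate 4 stood apart over all listed genes. Chadl was at 11.4 CPM in vehicle replicate 4, where vehicle replicates 1 to 3 ranged from 0.890 to 1.48 CPM. Chadl was also at 0.514 CPM in S1P replicate 7, against 0.287 to 0.291 CPM in the other S1P libraries, a range of few counts. Tsku was at 20.7 CPM in S1P replicate 5, against 14.2 to 15.2 CPM in the other S1P libraries. None of the 9 tested proteoglycan members was marked.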

How the results depend on the processing

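The calls of Dcn, Lum and Podn held with RLE or no composition factors, without a filter, with a filter of 1 CPM in 4 libraries, with DESeq2, with limma-voom, with a surrogate variable and on omitting the pair of vehicle replicate 4 and S1P replicate 5. Over the 8 fits that left out a library, 1 to 3 members were called lower and 0 higher. Over all genes, these fits called 333 to 1133 genes higher and 101 to 723 lower, against 663 and 344 with all libraries. DESeq2 called 804 genes lower, a surrogate variable gave 1471 higher and 1015 lower, and omitting that pair gave 1178 and 934. The share of calls that were higher was 65.8% with all libraries, 54.6% with DESeq2 and 55.8% without that pair. Fmod turned to 0.31 without the same pair, and ranged from -0.58 to 0.31 on leaving out single libraries, as Aspn did from -0.074 to 0.29. The Dcn to Lum difference was -0.21 with a pseudocount of 2 CPM and ranged from -0.18 to 0.16 on leaving out libraries. The causes were not tested. Kera had a log2 fold change of -2.31 without a filter (edgeR adjusted p = 0.168), at counts that limit any statement. No paired analysis was possible because the groups share no replicate numbers.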
